A study of Mus musculus with 15 samples.

Results

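MiR-146a, miR-146b and miR-155 were measured by real-time PCR in a mouse pancreatic α cell line with and without exposure to inflammatory cytokines, in separate cultures, and in an untreated mouse β cell line. Every assay whose name, without its species prefix and catalogue number, read miR-146a, miR-146b or miR-155 with any arm suffix was taken, which gave 4 assays of 584 miRNA assays: mmu-miR-146a, mmu-miR-146b, mmu-miR-155 and mmu-miR-146b*. The 15 samples formed 5 groups of 3: αTC1-6 untreated at 24 h, αTC1-6 with cytokines at 24 h, αTC1-6 untreated at 48 h, αTC1-6 with cytokines at 48 h, and βTC1 untreated at 24 h. The treatment was 1 cocktail of IL1b at 50 IU/ml, IFNg at 1000 IU/ml and TNFa at 1000 IU/ml, so no effect could be assigned to a single cytokine. αTC1-6 is a glucagonoma line and βTC1 an insulinoma line, each a single tumour-derived line and hence a limited model of an islet cell, and no cytokine-treated βTC1 samples were analysed here. Levels are given as ΔCt, the threshold cycle (Ct) of an assay minus that of miR-26a in the same sample, so that 1 cycle less is a level 1 log2 unit higher. Relative quantity is 2 to the power of minus ΔCt, with miR-26a at 1.

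The transcription factor NF-κB is switched on by IL-1β and TNFα receptors, and the genes of miR-146a and miR-155 are well-known targets of it. MiR-146a is regarded as a brake on this pathway, because it represses IRAK1 and TRAF6, proteins that carry the signal of the IL-1β receptor. MiR-155, cut from the long non-coding transcript Mir155hg, represses SOCS1, an inhibitor of cytokine signalling, and so is usually described as sustaining inflammation, while miR-146b comes from a separate gene but recognises targets through the same seed as miR-146a.

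The 4 assays were matched to mature mouse miRNAs of RefSeq on the assembly GRCm38.p6 (the star name was taken as the 3′ arm of the Mir146b hairpin), and the sequences are shown because seed sharing decides which members can act on the same targets. Bases 2 to 8, the seed, are in capitals.
mmu-miR-146a-5p: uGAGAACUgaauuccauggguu
mmu-miR-146b-5p: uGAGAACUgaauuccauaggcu
mmu-miR-146b-3p: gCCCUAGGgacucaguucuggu
mmu-miR-155-5p: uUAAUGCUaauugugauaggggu
MiR-146a-5p and miR-146b-5p had the same seed, which no other mature miRNA in the table shared, and were identical at 20 of 22 bases. Their 2 differences, counted from the 5′ end with the base of miR-146a first, were G18A and U21C, both close to the 3′ end. Whether either assay also amplified the other miRNA was not tested. The seeds of miR-155-5p and miR-146b-3p occurred in no other mature miRNA of the table. Mir146 lay at chr11:43374397-43374461 on the minus strand with no other annotated gene over it. Mir146b lay at chr19:46342762-46342870 on the plus strand, where its hairpin overlapped the gene Gm36493. Mir155 lay at chr16:84714140-84714204 on the plus strand within Mir155hg, which ran from position 84713023 to 84715245. The 3 hairpins were thus on 3 chromosomes, and the cards could read both arms for Mir146b alone.

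The Ct of the reference miR-26a ranged from 16.97 to 18.98 over the 15 samples. The deposited normalized values held a Ct for 399 to 466 assays per 24 h sample and for 493 to 521 per 48 h sample. A further 71 to 94 wells per 24 h sample, against 8 to 13 at 48 h, had a Ct in the deposited non-normalized values only. Values are therefore compared within a time point first. The islet miRNA miR-375 was detected in all samples, with a group mean ΔCt from -4.24 in βTC1 to -2.21 in αTC1-6 treated for 48 h. The other islet miRNAs listed, miR-7a and miR-7b, were instead lowest in level in βTC1. The mean ΔCt of miR-7a was 2.55 in untreated αTC1-6 of 24 h and 3.79 in βTC1. For miR-7b these were 3.66 and 4.06. MiR-7a had a Ct in 2 of 3 treated and miR-7b in 2 of 3 untreated αTC1-6 cultures of 24 h. Of 4 leukocyte miRNAs, miR-223 stayed at a ΔCt between 13.1 and 15.5 in all samples, and the summed relative quantity of the leukocyte list was 0.00101 to 0.00214 in untreated and 0.00109 to 0.00202 in treated αTC1-6 at 24 h, and 0.00104 to 0.00203 and 0.000825 to 0.00240 at 48 h. MiR-150 made up most of these sums. MiR-142-3p was at a mean ΔCt of 15.23 without and 14.15 with cytokines at 24 h, and of 16.25 and 15.02 at 48 h, a difference over both times of 1.15 (SE 0.822, limma adjusted p = 0.665), against 1.24 for miR-155. Its Ct in αTC1-6 was late, between 31.4 and 36.0. Of 3 leukocyte assays tested over both times only 1 was above 0, with a median of -0.11 and miR-223 at -0.11. MiR-142-5p had a Ct in 0 of 3 treated cultures of 24 h and in 1 of 3 in each other αTC1-6 group. The part of such cells in the results was not tested.

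MiR-146a was the member that changed most after cytokines, and it did so at both times. At 24 h its ΔCt was 2.99, 4.01 and 4.27 in the untreated αTC1-6 cultures and 0.763, -0.00663 and 0.613 in the treated ones. At 48 h it was 3.99, 3.98 and 4.03 without and 0.276, 0.290 and -0.0348 with cytokines. Every treated culture was above every untreated one at its time point. As relative quantity the mean went from 0.0800 ± 0.0401 (SD, n = 3) to 0.749 ± 0.223 at 24 h, and from 0.0625 ± 0.00108 to 0.889 ± 0.117 at 48 h.

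**Figure D1:**
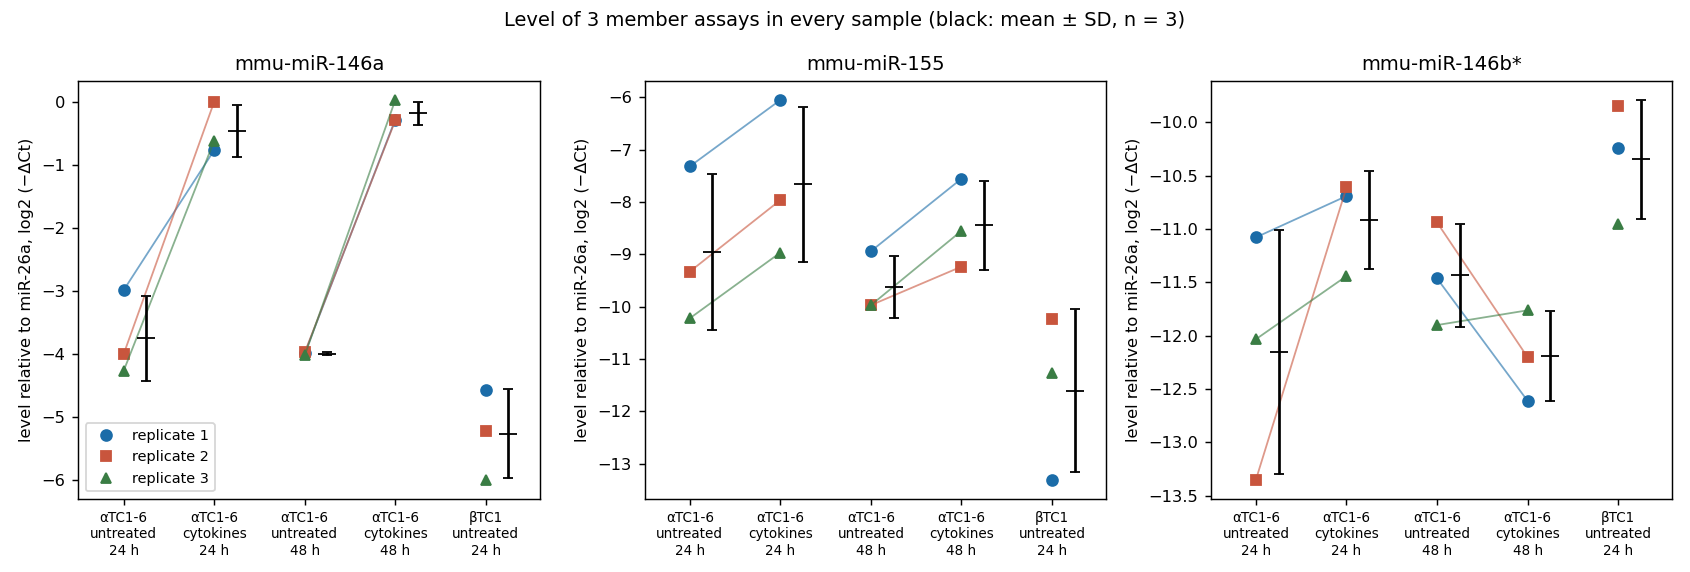
Level relative to miR-26a (−ΔCt, log2) of mmu-miR-146a, mmu-miR-155 and mmu-miR-146b* in the 15 samples, with coloured symbols for replicate numbers, lines joining untreated and treated αTC1-6 of equal number and time, and black marks for the mean ± SD (n = 3). Treated and untreated miR-146a are separate at both times, the miR-155 groups overlap although each line slopes upward, and miR-146b* shows no common direction.

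Over both time points, miR-146a rose by 3.56 on the log2 scale (SE 0.266, 95% interval 2.96 to 4.16), an 11.8-fold increase (limma, adjusted p = 9.67e-05), and had the smallest p of 477 assays tested, of which 12, or 2.52%, passed the threshold of 0.05 (3 higher and 9 lower; with each sample centred on its median Ct in place of miR-26a, 4 of 5 calls were higher). At 48 h alone it rose by 3.82 (SE 0.268, 14.2-fold, limma adjusted p = 0.00714), again the smallest p, where 3 of 534 assays, or 0.562%, passed. At 24 h alone the difference was 3.30 (SE 0.485, 9.85-fold), which did not pass after adjustment (limma, adjusted p = 0.173), and 1 of 445 assays, or 0.225%, did. Non-overlapping groups with the treated side higher were seen in 6.07% of assays at 24 h and in 2.06% at 48 h. The change of the cytokine effect from 24 to 48 h, 0.52 (SE 0.532, 95% interval -0.67 to 1.72, limma adjusted p = 0.961), did not pass, in a comparison where 0.210% of assays did. This change was larger with other scalings, at 0.95 with median centring and 1.24 with U6 and small nucleolar RNAs as reference (3.20 at 24 h and 4.45 at 48 h), and did not pass there either (limma adjusted p of 0.946 and 0.986).

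The call at 48 h depended on the fit. Since cultures of equal replicate number deviated together at both times, they were taken as pairs and the fit with the number as a block is given beside it: the difference kept its size and its SE was 0.195, but with the fewer degrees of freedom left 0 of 534 assays passed by limma (121 at an unadjusted p under 0.05), and miR-146a had a limma adjusted p of 0.116. Leaving out untreated replicate 2 or 3 or treated replicate 2 or 3 of 48 h gave adjusted p of 0.0523, 0.0597, 0.0935 and 0.133 (limma), with differences of 3.72 to 3.88. The call over both time points held with each of the 12 cultures left out in turn, with adjusted p of 4.00e-05 to 0.000694.

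The spread of untreated miR-146a at 48 h, an SD of 0.0250 in ΔCt, was far below the SD of 0.677 at 24 h, although its Ct values there were 22.97, 20.95 and 21.97. All 3 of these Ct values and all 3 of miR-26a in the same samples had decimals of 0.9 or more. Of the 4940 Ct values of miRNA assays spotted in 1 well, 42.8% had such decimals, and the share was 9 of 15 for miR-146a and 10 of 15 for miR-155. How Ct values just below whole cycles arose, and their part in the small SD, was not tested.

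MiR-155, detected 4.33 to 8.95 cycles later than miR-146a in the same samples, differed less between treated and untreated cultures but in the same direction in each pair. At 24 h its ΔCt was 7.32, 9.33 and 10.2 without and 6.05, 7.96 and 8.97 with cytokines. At 48 h it was 8.94, 9.97 and 9.97 without and 7.56, 9.24 and 8.55 with them. The groups overlapped at both times, with replicate 1 above replicates 2 and 3 in level in all 4 αTC1-6 groups. Read pair by pair, the treated culture exceeded the untreated one of the same number by 1.27, 1.37 and 1.26 at 24 h and by 1.39, 0.74 and 1.42 at 48 h on the log2 scale.

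Without pairing, the difference of miR-155 was 1.30 (SE 1.08, limma adjusted p = 0.973) at 24 h, 1.18 (SE 0.585, adjusted p = 0.527) at 48 h and 1.24 (SE 0.643, 95% interval -0.21 to 2.68, adjusted p = 0.482) over both, and none passed. With 1 culture left out the value ranged from 0.49 (without treated replicate 1) to 2.12 (without untreated replicate 1) at 24 h, and from 0.73 to 1.57 at 48 h. With the replicate number as a block the SE fell to 0.155 at 24 h and 0.249 at 48 h, with limma adjusted p of 0.331 and 0.174. Over both times, 1 set of 3 blocks gave an adjusted p of 0.0810, and separate blocks within each time point, a fit chosen after seeing the data, gave an SE of 0.135 and an adjusted p of 0.0176 (limma), in a fit that called 34 of 477 assays, or 7.13%. The estimate, 2.36-fold, was the same in these fits, so whether miR-155 passed the threshold turned on how pairs were entered. The effect at 48 h minus that at 24 h was -0.12 (SE 1.29, limma adjusted p = 0.989), and its sign was not stable across scalings.

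**Figure D2:**
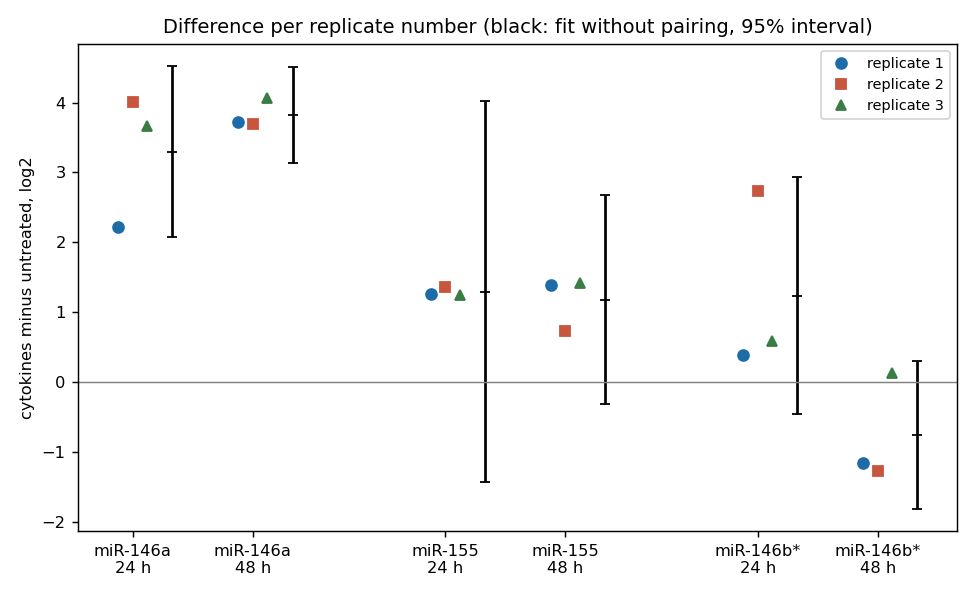
Treated minus untreated αTC1-6 level (log2) for each replicate number at 24 and 48 h, with black bars for the limma estimate and 95% interval without pairing. All 6 differences are above 0 for miR-146a and for miR-155, those of miR-155 lie between 0.74 and 1.42 within much wider unpaired intervals, and those of miR-146b* fall on both sides of 0.

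Of 310 assays with a Ct in all 12 αTC1-6 samples, 8, or 2.58%, were higher with cytokines in all 6 pairs, and miR-146a and miR-155 were among these 8. The third member with a Ct throughout, miR-146b*, was higher in 4 of 6 pairs. By size of the difference over both times, miR-146a ranked 2 and miR-155 ranked 12 from the top of the 310 assays. The median log2 difference of the 3 members tested was 1.24, against -0.30 over all assays tested.

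Mature miR-146b was mostly undetermined, in contrast to miR-146a with the same seed. In the normalized table it had a Ct in 2 of 15 samples only, 29.6 in untreated replicate 2 and 32.2 in treated replicate 2 of 48 h, which made ΔCt 12.6 and 14.5. It therefore entered no test, and no fold is given. The non-normalized table held a Ct in 4 more samples, 23.4 and 29.7 in treated αTC1-6 replicates 2 and 3 of 24 h and 24.16 and 24.98 in βTC1 replicates 2 and 3, where the normalized table had it undetermined. In neither table was there a Ct in any of the 3 untreated αTC1-6 cultures of 24 h. Such disagreement was common at 24 h, where 71 to 94 wells per sample were undetermined in the normalized but not in the other table, against 8 to 13 at 48 h. For miR-146a and miR-155 the Ct values of both tables were equal in all 15 samples. For miR-146b* the non-normalized Ct was that of its first well alone, while the mean of its wells was used here. In untreated αTC1-6 replicate 1 of 24 h these were 30.92 and 30.06.

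**Figure D3:**
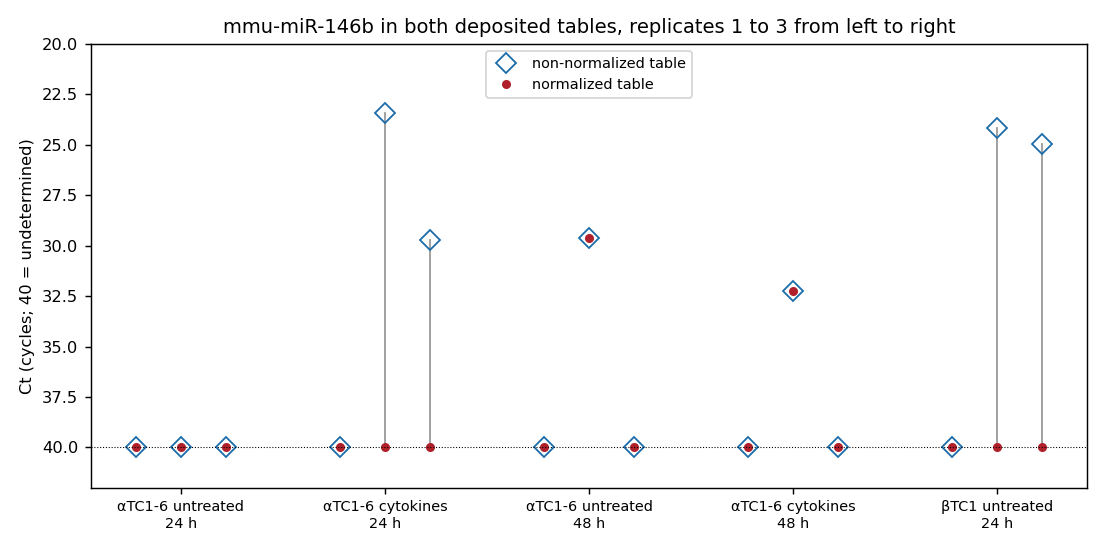
Ct of mmu-miR-146b (cycles, reversed axis, 40 for undetermined) in each sample, with filled circles for the normalized and open diamonds for the non-normalized table. The tables differ in 4 samples, 2 treated αTC1-6 of 24 h and 2 βTC1.

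The other arm of the same hairpin, miR-146b*, was measured in 2 wells in all samples, late in the reaction, with mean Ct from 28.6 to 30.2 per group. Its wells differed by a median of 0.426 cycles and by up to 1.71. Over all assays in 2 wells, not matched for Ct, the median was 0.299 and the highest difference 26.2. At 24 h its ΔCt was 11.08, 13.35 and 12.03 without and 10.7, 10.6 and 11.4 with cytokines. At 48 h it was 11.5, 10.9 and 11.9 without and 12.6, 12.2 and 11.8 with them. The groups overlapped at both times, with differences of 1.24 (SE 0.674, limma adjusted p = 0.973) and -0.76 (SE 0.413, adjusted p = 0.535). The effect at 48 h minus that at 24 h was -2.00 (SE 0.802, limma adjusted p = 0.940), and over both times the difference was 0.24 (SE 0.401, adjusted p = 0.841).

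Time in culture alone moved no member past the threshold. Untreated αTC1-6 at 48 h against 24 h differed by -0.24 (SE 0.438) for miR-146a, by -0.67 (SE 0.845) for miR-155 and by 0.72 (SE 0.677) for miR-146b*, with limma adjusted p of 0.972 to 0.977 and overlapping groups, while 5.32% of 489 assays passed. Without untreated replicate 1 of 24 h the first 2 of these differences became 0.14 and 0.15. The share of 5.32% was 26 calls, 25 of them higher at 48 h, and depended on how undetermined wells were entered. It fell to 0 calls among assays with a Ct in every sample and to 1 with undetermined wells as missing. The non-normalized Ct values gave 2 calls, 0 of them higher. Median centring left the count at 26, and U6 and small nucleolar RNAs as reference gave 25.

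In the untreated βTC1 cells, miR-146a and miR-155 were at their lowest and miR-146b* at its highest. The ΔCt of miR-146a was 4.58, 5.22 and 6.00 in βTC1, below all untreated αTC1-6 cultures in level. The ΔCt of miR-155 was 13.31, 10.24 and 11.27, of which the second was barely below the lowest untreated αTC1-6 level, at a ΔCt of 10.22. The ΔCt of miR-146b* was 10.2, 9.85 and 10.9, a higher level than in any untreated αTC1-6 culture of 24 h. Between αTC1-6 and βTC1 at 24 h the difference was 1.51 (SE 0.609, adjusted p = 0.132) for miR-146a, 2.65 (SE 1.12, adjusted p = 0.147) for miR-155 and -1.81 (SE 0.724, adjusted p = 0.131) for miR-146b*, by limma. With 1 sample left out these ran from 1.13 to 1.86, from 1.80 (without βTC1 replicate 1) to 3.33 (without βTC1 replicate 2), and from -2.34 (without αTC1-6 replicate 1) to -1.21 (without αTC1-6 replicate 2). None passed, in a comparison where 27.7% of 480 assays did, and where 17.3% of assays did not overlap with αTC1-6 higher and 28.5% with αTC1-6 lower. MiR-146a passed with median centring (adjusted p = 0.0276), without normalization (0.0259) and in a fit over all 15 samples (0.0175), and miR-146b* in the latter 2 (0.0304 and 0.0264, limma). These settings called more assays in general, at 171, 149 and 163 of 480 against 133 in the main fit.

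Ordered by level, miR-146a was highest in αTC1-6 treated for 48 h, then treated for 24 h, untreated at 24 h, untreated at 48 h, and lowest in βTC1. The ranges of both treated groups overlapped, as did those of both untreated αTC1-6 groups, and the steps between treated and untreated and between αTC1-6 and βTC1 were free of overlap. For miR-155 the order was treated 24 h, treated 48 h, untreated 24 h, untreated 48 h and βTC1, with only the last step free of overlap. For miR-146b* it was βTC1, treated 24 h, untreated 48 h, untreated 24 h and treated 48 h, and all neighbours overlapped.

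Among 20 other miRNAs linked to NF-κB or inflammation, 19 had an assay and 17 were tested over both times. Of these 1 passed, upward, where 2.52% of all assays did. It was miR-125b-5p, which rose by 1.34 (SE 0.279, limma adjusted p = 0.0438). It missed the threshold with any of the 12 cultures left out (0.0505 to 0.104) and in 4 of 11 other settings. With either form of the replicate block 2 passed, miR-125b-5p and miR-34a, both upward. The single set of blocks called 18 of 477 assays, and blocks within each time point called 34 of 477. Of the others with a Ct in all 12 samples, miR-222, a regulator of the cell cycle inhibitor p27, had the largest positive value (2.00, SE 0.813, adjusted p = 0.312), which was 1.32 without treated replicate 1 of 48 h. The most negative values among assays with a Ct in all 12 samples were those of miR-132 (-0.52, SE 0.466) and miR-29b (-0.38, SE 0.384), with limma adjusted p of 0.722 and 0.747. MiR-187, undetermined in 1 treated culture of 24 h and named after its values were seen, was lower still: at 48 h, with a Ct in all 6 cultures and no overlap, its difference was -2.77 (SE 0.564, adjusted p = 0.167). In all 5 of 17 were above 0, and the median of the list was -0.19 beside -0.30 over all assays. At 24 h and at 48 h, 0 of 17 and 0 of 18 passed by limma, beside 0.225% and 0.562% of all assays. An unadjusted limma p under 0.05 was seen for 3 of 17 and 3 of 18, beside 20 of 445 and 60 of 534 among all assays.

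**Figure D4:**
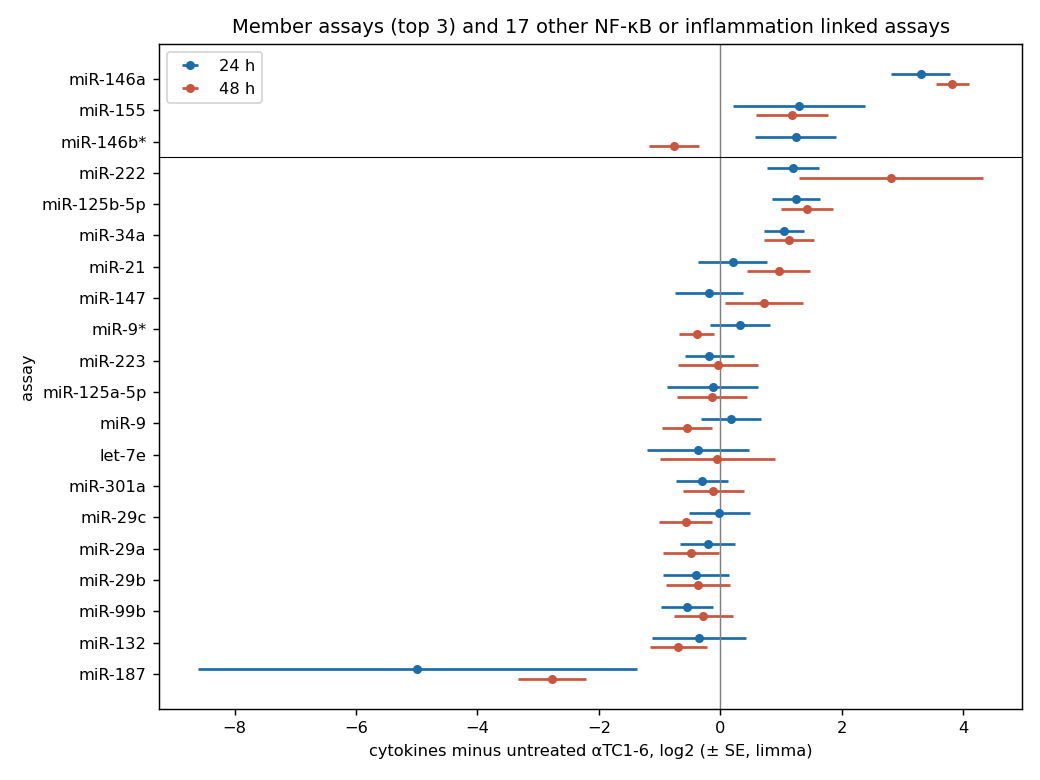
Treated minus untreated αTC1-6 (log2, ± SE of the limma fit) at 24 h (blue) and 48 h (red) for the 3 tested members, above the line, and 17 other NF-κB or inflammation linked assays, ordered by their mean. MiR-146a lies to the right of all others at both times, miR-222, miR-125b-5p and miR-34a are positive at both, and the wide bar of miR-187 at 24 h includes an undetermined well set to a Ct of 40.

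Between the lines, 6 of 19 of these miRNAs passed, 5 lower and 1 higher in αTC1-6, a share near the 27.7% of all assays (52 higher and 81 lower). MiR-222 was lower in αTC1-6 (log2 difference -10.10, SE 0.626, limma adjusted p = 0.000104), and miR-10a and miR-221 amplified in every βTC1 sample and in no untreated αTC1-6 culture of 24 h in the normalized table. At 48 h, however, miR-10a had a Ct in 2 of 3 untreated and 1 of 3 treated αTC1-6 cultures, and miR-221 in 0 of 3 and 2 of 3. MiR-125b-5p (-3.76, adjusted p = 0.00290) and miR-301a (-1.86, adjusted p = 0.0200) were lower and miR-29a (2.29, adjusted p = 0.0253) was higher in αTC1-6 by limma. With 1 sample left out, miR-301a passed only without βTC1 replicate 3 and miR-29a only without βTC1 replicate 2, and the other adjusted p reached 0.110 and 0.105. In the non-normalized table miR-10a and miR-221 no longer passed (limma adjusted p = 0.252 and 0.0682).

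The assay whose profile over the 12 αTC1-6 samples was most like that of miR-146a was miR-203, at a root mean square difference of 0.830 on the log2 scale after centring, against a median of 2.09 over 309 assays. A flat profile would lie at 1.82 from that of miR-146a. MiR-203 rose by 2.35 over both times (SE 0.360, limma adjusted p = 0.0108). MiR-125b-5p (1.25) and miR-34a (1.33) came next, and miR-34a, a p53 target, differed by 1.09 (SE 0.247, limma adjusted p = 0.0525) and passed with the replicate block (0.0295, and 0.0359 with blocks within each time point) and with median centring (0.00196). For miR-155 the nearest were miR-96 (0.780), miR-27a* (0.813) and rno-miR-29b-2* (0.831), against a median of 1.20. None of these differed by more than 0.10 over both times. For miR-146b* the nearest were miR-676* (0.566), miR-532-5p (0.585) and miR-706 (0.6003), against a median of 0.939. A flat profile would lie at 1.20 from that of miR-155 and at 0.777 from that of miR-146b*.

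**Figure D5:**
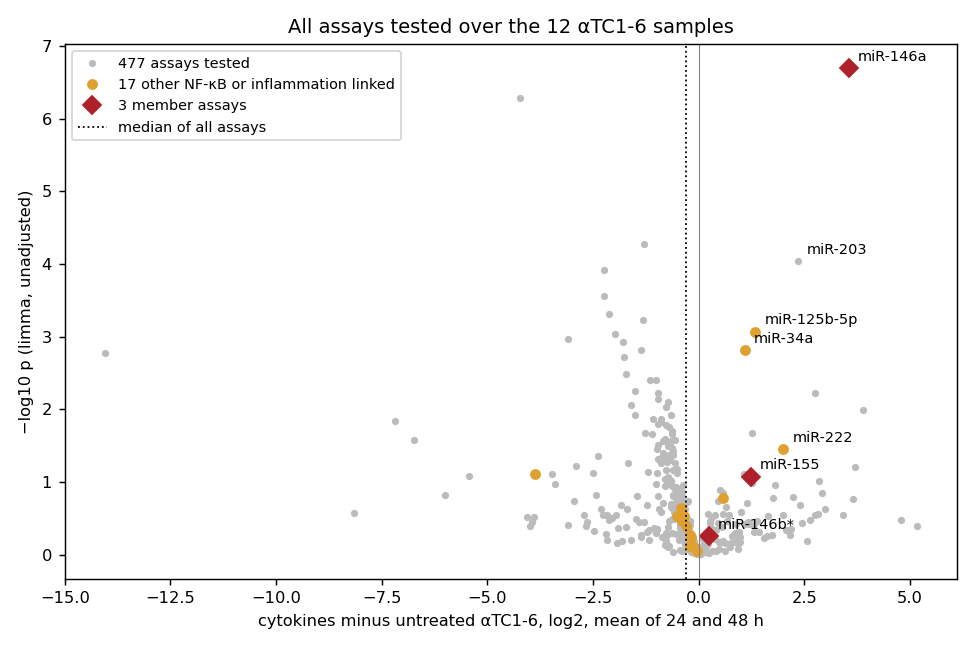
Treated minus untreated αTC1-6 over both times (log2, x axis) against −log10 of the unadjusted limma p (y axis) for 477 assays, with diamonds for the 3 members, orange circles for 17 NF-κB or inflammation linked assays and a dotted line at the median of all assays. MiR-146a has the smallest p, miR-203, miR-125b-5p and miR-34a follow on the positive side, and miR-155 and miR-146b* lie lower.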

How the data were processed

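Total RNA of 15 samples was reverse transcribed, preamplified and run on TaqMan rodent low density cards A and B. The authors deposited non-normalized Ct values (other: PCR cycles), a normalized table with log2-scale ΔCt values relative to miR-26a, and the ratio 2 to the power of minus ΔCt per the file headers. In the normalized table a well without amplification has a Ct of 40. A table of the authors' own fold changes was not used. The methods describe 3 independent biological replicates per group. Wells of 1 assay were averaged. Minus ΔCt was compared with limma 3.58.1 in R 4.3.3 (figures: Python 3.11.15, matplotlib 3.10.9), over the groups of each comparison and over assays of both cards with a Ct under 40 in at least 50% of the samples, with Benjamini-Hochberg adjustment over both cards and a threshold of 0.05. The code was tested on simulated data. The deposited ratio matched the ΔCt for all 11310 values within 0.001. Depth does not apply to PCR, where the number of cultures limits precision. Members and gene lists were chosen with earlier results of these data known. Named were all members, list miRNAs past the threshold, the 2 largest differences in each direction among list miRNAs with a Ct in all 12 αTC1-6 samples, and the 3 nearest profiles per member. Replicate numbers come from the sample labels. Treated and untreated cultures of equal number deviated together from their group means, with r of 0.337, 0.355 and 0.539 at 24 h and 0.528, 0.574 and 0.621 at 48 h, and were treated as pairs; untreated 48 h against 24 h (-0.0273 to 0.0862) and αTC1-6 against βTC1 (0.0978 to 0.282) were not. Alternatives changed the normalization, filter, undetermined wells, adjustment, samples, pairing and source table.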

Additional observations from a re-analysis of the deposited data

Results flagged for a closer look

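MiR-146b was flagged for a signal in the non-normalized table, which the comparisons did not use. It held a Ct of 23.4 and 29.7 in cytokine-treated αTC1-6 replicates 2 and 3 of 24 h, while the untreated αTC1-6 of 24 h were undetermined in both tables, and a Ct of 24.16 and 24.98 in βTC1 replicates 2 and 3. The normalized table gave all 4 as undetermined. What separated the tables was not tested.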

How the results depend on the processing

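For miR-146a over both times, all 11 other settings passed the threshold, with differences of 3.51 to 3.92 and limma adjusted p of 1.70e-05 to 0.00671. At 24 h it passed only in the fit over all 15 samples (3.30, adjusted p = 0.00166), and with 1 culture left out it gave 3.04 to 3.68. At 48 h it lost the call without normalization (3.91, adjusted p = 0.273) and with the replicate block (3.82), and with 1 culture left out gave 3.72 to 3.88. MiR-155 over both times passed only with blocks within each time point (1.24). Against βTC1, miR-146a passed with median centring (1.58), without normalization (1.66) and over all 15 samples (1.51), and miR-146b* without normalization (-1.66) and over all 15 samples (-1.81). The effect of 48 h minus 24 h on miR-155 turned positive with median centring (0.31), without normalization (0.16) and with U6 and small nucleolar RNAs as reference (0.61), and ran from -0.93 to 0.69 with 1 culture left out. Leaving out 1 culture gave -0.058 to 0.51 for miR-146b* over both times, and -0.50 to 0.14 for miR-146a and -1.30 to 0.15 for miR-155 in untreated 48 h against 24 h. The replicate block changed no other call of a member. The number of assays past the threshold went from 1 to between 0 and 2 at 24 h, from 3 to between 0 and 5 at 48 h, from 12 to between 5 and 34 over both times, from 1 to between 0 and 3 for the change of the effect, from 26 to between 0 and 30 for untreated 48 h against 24 h, and from 133 to between 80 and 171 between the lines. At 48 h the median over all assays was -0.51 relative to miR-26a, 0.17 with median centring and 0.11 with U6 and small nucleolar RNAs.

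Undetermined wells set to 40 are bounds, 3 cultures per group leave wide intervals, and miR-26a alone carries the normalization of the deposited values.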
